A study of Mus musculus with 14 samples.

Results

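*Lrrn4* and 9 further genes of the mesothelium, the cell layer that covers the liver capsule, were read out in the livers of diabetic mice given indole or vehicle. The 10 genes, of 55487 in the count table, were *Lrrn4*, *Msln*, *Upk3b*, *Upk1b*, *Wt1*, *Gpm6a*, *Muc16*, *Cldn15*, *Bnc1* and *Rspo1*, found by their symbols. *Lrrn4* was chosen on its difference between these same groups, and the others were chosen as mesothelial genes with results of these libraries known. The difference between the groups is therefore given for them as a description, and where the number of them that passed a test is printed beside the share of all genes, it supports nothing.

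RNA-seq of polyA RNA was made from the right liver lobe of 14 male mice of the TALLYHO strain, in which many loci together produce type 2 diabetes, aged 8 to 12 weeks. The 7 vehicle mice (G1, G4, G6, G9, G10, G11 and G13) received water by oral gavage, and the 7 indole mice (G2, G3, G5, G7, G8, G12 and G14) received 20 mg/kg indole, a product of bacterial tryptophan metabolism. Both groups had 2 doses a day for 7 days and 2 further doses before tissue collection on day 11, and underwent metabolic tests in between. The comparison asks how repeated oral indole changed gene expression in the liver.

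The liver surface is covered by a single layer of flat mesothelial cells that lie on the connective tissue of Glisson's capsule. These cells make a lubricating surface, carry membrane proteins that few other liver cells make, and arise in the embryo from mesoderm that expresses the transcription factor Wt1. A piece of liver holds far more hepatocytes than surface cells, so RNA from the mesothelium makes up a very small part of the total. In bulk RNA, fewer mesothelial cells in the piece and less RNA per cell cannot be told apart.

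Depth was similar across libraries, at 15197498 to 21060376 counted reads per mouse, and the hepatocyte genes *Alb*, *Ttr*, *Apoa1* and *Tat* together reached 58400 to 89800 CPM (counts as parts per 1000000 of the scaled library) in every mouse. Libraries G1 to G4 stood apart in composition, with trimmed mean of M values (TMM) scaling factors of 1.07 to 1.08 against 0.931 to 1.004 in the other libraries. These 4 libraries came from 2 vehicle and 2 indole mice. In the genes described here, indole mice G2, G12 and G14 stood lowest and vehicle mice G11 and G13 highest. Mouse G11 also had the highest CPM of *Saa1*, an acute-phase protein of the liver, at 2050, followed by G13 at 480, against 15.9 to 109 in the other 12 mice. The part of this acute-phase level in the mesothelial values was not tested.

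The 10 genes lie on 8 chromosomes and share no family, although *Upk3b* and *Upk1b* share the name uroplakin. They can be grouped by what their proteins do: *Msln* and *Muc16* encode a surface protein and the mucin that binds it, *Upk3b* and *Upk1b* encode membrane proteins first described in bladder urothelium, *Gpm6a* and *Lrrn4* encode membrane proteins better known from neurons, *Cldn15* encodes a tight junction protein, *Wt1* and *Bnc1* encode zinc finger transcription factors, and *Rspo1* encodes a secreted enhancer of Wnt signalling. RefSeq promoter windows on GRCm38.p6, from 250 bases before to 50 bases after the start, were given for 7 of the 10 genes in 8 windows. The letters GGAATG, the core bound by TEAD factors, were searched on both strands and were present in 4 of the 8 windows (*Lrrn4*, *Upk3b*, *Cldn15* and the more upstream window of *Gpm6a*), against 14.7% of all 32851 windows. That *Gpm6a* window (chr8:54779184-54779483) lies far before the deposited gene, which starts at 54954843. The *Gpm6a* window nearer to the gene (chr8:54954478-54954777) held no match. A match is a description of the letters and not a binding site. The bases before the start are shown for 3 of these genes, whose windows lie at the start of the deposited gene or inside it, 5′ to 3′ on the strand of the gene, with the match to GGAATG or its reverse complement in capitals. They lie at chr2:132880863-132881112 on the minus strand for *Lrrn4*, chr5:136038246-136038495 on the plus strand for *Upk3b*, and chr5:136967619-136967868 on the plus strand for *Cldn15*.
Lrrn4: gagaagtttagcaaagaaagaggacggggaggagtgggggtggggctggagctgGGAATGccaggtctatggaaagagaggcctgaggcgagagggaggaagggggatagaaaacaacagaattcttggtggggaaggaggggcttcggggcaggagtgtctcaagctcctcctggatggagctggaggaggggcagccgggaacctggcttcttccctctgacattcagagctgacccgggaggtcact
Upk3b: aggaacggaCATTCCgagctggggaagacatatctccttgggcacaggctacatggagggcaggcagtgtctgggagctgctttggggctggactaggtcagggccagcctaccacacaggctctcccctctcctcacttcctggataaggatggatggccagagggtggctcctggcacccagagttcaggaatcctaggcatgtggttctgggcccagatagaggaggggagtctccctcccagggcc
Cldn15: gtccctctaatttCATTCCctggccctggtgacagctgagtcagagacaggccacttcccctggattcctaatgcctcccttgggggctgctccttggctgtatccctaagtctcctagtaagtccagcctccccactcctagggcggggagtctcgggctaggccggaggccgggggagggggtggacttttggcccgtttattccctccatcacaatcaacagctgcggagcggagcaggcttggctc
The capitals begin 196 bases before the start in *Lrrn4*, 241 bases before it in *Upk3b* and 237 bases before it in *Cldn15*, whose window holds another match that spans the start itself. The core GTGGGAG of WT1 was in none of the 8 windows (9.73% of all windows), and the E-box CAGGTG was in 1 window, the more upstream of *Gpm6a* (20.2% of all windows).

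In all 14 mice the 10 genes together received 2896 reads, 2029 in vehicle mice and 867 in indole mice. Vehicle mouse G1 had 126 such reads, G6 had 192, G10 had 221, G9 had 244, G4 had 334, G11 had 444 and G13 had 468. Indole mouse G2 had 23 reads, G12 had 46, G14 had 58, G8 had 125, G7 had 140, G5 had 231 and G3 had 244. In CPM, G2, G12 and G14 lay below every vehicle mouse, while the other 4 indole mice lay inside the vehicle range.

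**Figure D1:**
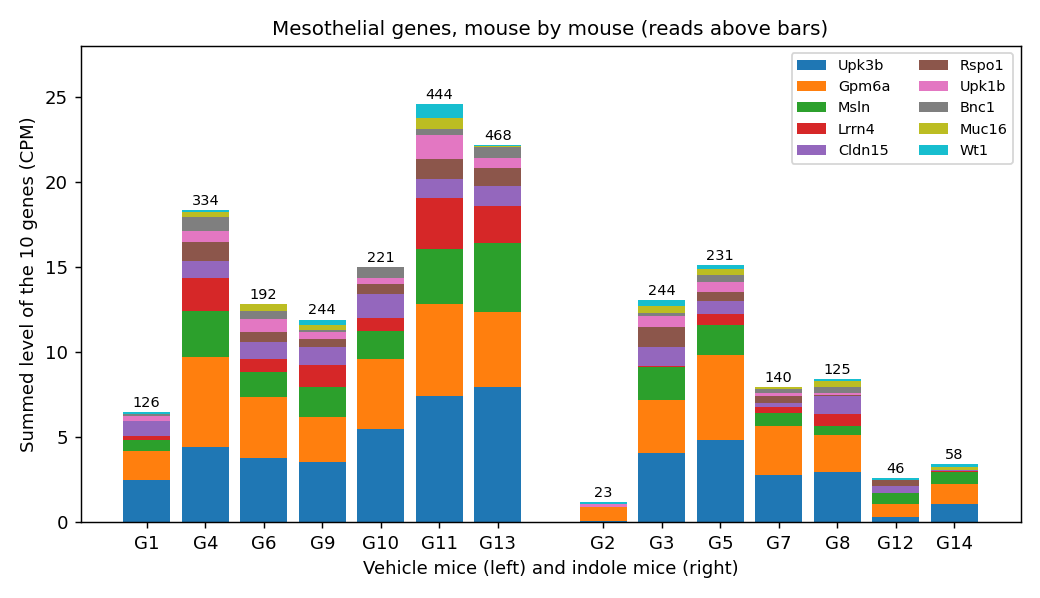
Reads on the 10 mesothelial genes in each mouse, in CPM on TMM-scaled libraries, as stacked bars with 1 colour per gene, with the number of reads above each bar. Vehicle bars reach 6.49 to 24.6 CPM, and indole mice G2, G12 and G14 reach 1.21 to 3.40 CPM, the lowest of all mice.

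On the CPM scale, which takes library size into account, the summed level was 15.9±6.26 in vehicle mice and 7.39±5.33 in indole mice (mean±SD, *n*=7 per group). The vehicle mean was 2.15 times the indole mean, and the ratio was 1.43 without G2, G12 and G14 and 1.75 without G11 and G13. The spread within each group was wide: the highest mouse had 3.79 times the lowest among vehicle mice and 12.5 times the lowest among indole mice. Among libraries G1 to G4 (2 mice per group) the mean summed level was 12.4 CPM in vehicle and 7.13 CPM in indole mice. Among libraries G5 to G14 (5 mice per group) it was 17.3 CPM and 7.49 CPM.

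Per kilobase of the deposited gene length, *Upk3b* had the highest vehicle level, at 1.42±0.578 CPM per kilobase (RPKM), followed by *Gpm6a* at 1.20±0.423. *Msln* (0.722±0.381), *Cldn15* (0.515±0.0826), *Lrrn4* (0.391±0.262), *Rspo1* (0.377±0.213) and *Upk1b* (0.296±0.182) came next in RPKM, and no neighbours in this run of 5 differed by more than the larger of their SDs. *Bnc1* (0.0961±0.0576 RPKM), *Wt1* (0.0330±0.0484 RPKM) and *Muc16* (0.00911±0.00932 RPKM) were far lower. *Upk3b* and *Gpm6a* did not differ beyond their spread, nor did *Wt1* and *Muc16*, while *Gpm6a* lay above *Msln*, *Upk1b* above *Bnc1* and *Bnc1* above *Wt1* by more than the larger SD.

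*Lrrn4* (ENSMUSG00000043110, GRCm38 chr2:132868305-132880891, minus strand), a leucine-rich repeat membrane protein, had 189 reads in vehicle mice and 32 in indole mice. Its reads in vehicle mice were 4 in G1, 11 in G10, 12 in G6, 26 in G9, 36 in G4, 46 in G13 and 54 in G11. In indole mice they were 0 in G2, 1 in G12, 1 in G14, 2 in G3, 7 in G7, 10 in G5 and 11 in G8. The groups overlapped only through vehicle mouse G1: the other 6 vehicle mice lay above every indole mouse in CPM, and 4 indole mice lay below every vehicle mouse. Of those 6, G10 was nearly tied with indole mouse G8, at 0.746 and 0.740 CPM. Both had 11 reads, so their order rests on library scaling alone. The mean was 1.45±0.973 CPM in vehicle and 0.288±0.309 CPM in indole mice (*n*=7 per group), and the fitted log2 fold change (indole over vehicle) was −2.39 (SE 0.638). Without G2, G12 and G14 it was −1.64. At 0 reads, mouse G2 allows up to 0.158 CPM, the level of 3 reads in that library, as a limit for counting error only.

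*Lrrn4* was also lower relative to the other mesothelial genes. It made up 9.31% of the reads on the 10 genes pooled over vehicle mice (189 of 2029) and 3.69% pooled over indole mice (32 of 867). Mouse by mouse the share was 3.17% to 12.2% in vehicle mice (mean 8.26±3.43%) and 0% to 8.80% in indole mice (mean 3.26±3.03%, *n*=7 per group), with overlap between the groups. In indole mouse G3, which had the most mesothelial reads of its group, only 2 of 244 reads were *Lrrn4* (0.820%, exact binomial 95% interval 0.0994% to 2.93%), whereas in vehicle mouse G11 54 of 444 were (12.2%, interval 9.27% to 15.6%). In mouse G2, 0 of 23 reads allows a share of up to 13% by the limit of 3 reads, and the exact interval reaches 14.8%. The other 9 genes, without *Lrrn4*, had a summed CPM 2.03 times as high in vehicle as in indole mice. Because *Lrrn4* was chosen on its difference between the groups, its share is a description as well.

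**Figure D2:**
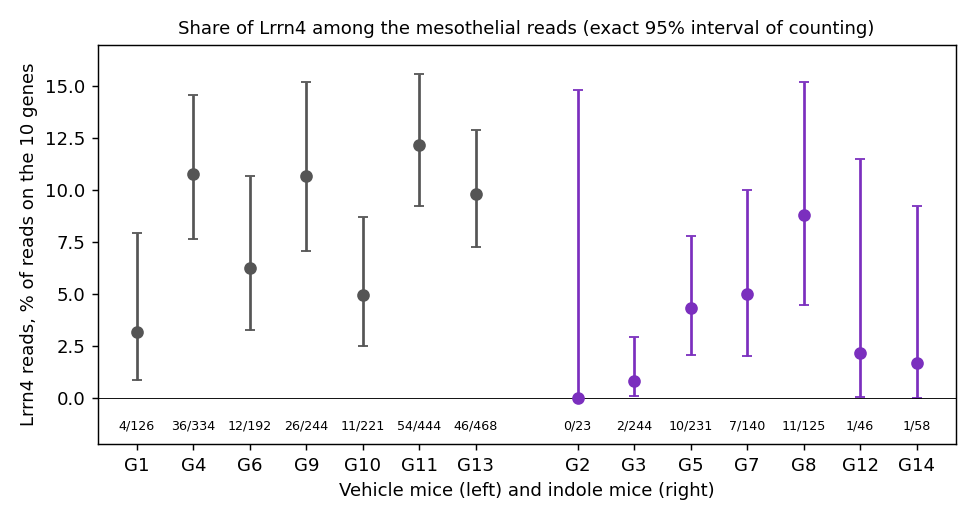
*Lrrn4* reads as a percentage of the reads on the 10 mesothelial genes in each mouse, with exact binomial 95% intervals that cover counting error only. Vehicle mice span 3.17% to 12.2% and indole mice 0% to 8.80%, and the intervals are widest in G2 and G12, the mice with the fewest reads.

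*Msln* (ENSMUSG00000063011, chr17:25748613-25754378, minus strand), the surface glycoprotein mesothelin, had 13 to 86 reads in vehicle mice (median 36) and 0 to 36 in indole mice (median 12). Vehicle mice G13, G11 and G4 lay above every indole mouse, and 3 indole mice lay below every vehicle mouse. The mean was 2.21±1.17 CPM in vehicle and 0.899±0.694 CPM in indole mice, with a log2 fold change of −1.31 (SE 0.513). *Muc16* (ENSMUSG00000109564, chr9:18495455-18674530, minus strand), a large membrane mucin that binds mesothelin, had 0 to 12 reads in vehicle mice (median 5) and 0 to 8 in indole mice (median 3). It was at 0 in 2 mice of each group, the groups overlapped almost fully, and the means were 0.240±0.246 and 0.197±0.171 CPM.

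*Upk3b* (ENSMUSG00000042985, chr5:136038496-136046487, plus strand), the uroplakin widely used as a mesothelial marker, gave the most reads of the 10 genes, 909 in all. It had 48 to 168 reads in vehicle mice (median 81) and 1 to 76 in indole mice (median 44), and its reads in G2, G12 and G14 were 1, 5 and 18. The mean was 5.02±2.04 CPM in vehicle and 2.29±1.87 CPM in indole mice, and the log2 fold change was −1.15 (SE 0.583), or −0.45 without those 3 mice. *Upk1b* (ENSMUSG00000049436, chr16:38773184-38800328, minus strand), a tetraspanin uroplakin, had 5 to 25 reads in vehicle mice (median 11) and 0 to 12 in indole mice (median 3). It was at 0 in G12 and G14, 5 indole mice lay below every vehicle mouse, and the means were 0.619±0.380 and 0.242±0.265 CPM.

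*Gpm6a* (ENSMUSG00000031517, chr8:54954843-55060871, plus strand), a proteolipid membrane glycoprotein, was read in every mouse. It had 33 to 98 reads in vehicle mice (median 61) and 14 to 76 in indole mice (median 32). The 3 indole mice G2, G12 and G14, with 16, 14 and 20 reads, lay below every vehicle mouse, and the other 4 lay within the vehicle range in CPM. The mean was 3.87±1.36 CPM in vehicle and 2.28±1.52 CPM in indole mice, with a log2 fold change of −0.77 (SE 0.377).

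*Cldn15* (ENSMUSG00000001739, chr5:136966616-136975858, plus strand), a claudin that forms cation channels in tight junctions, differed from the others in how evenly it was read in vehicle mice. It had 15 to 25 reads in vehicle mice (median 20) and 0 to 21 in indole mice (median 7). Its variance between vehicle mice was 0.466 times that expected from counting alone, against 7.35 times between indole mice. For *Upk3b* the same index was 16.1 in vehicle and 27.2 in indole mice, and 8 of the 10 genes were above 2 in both groups. The mean of *Cldn15* was 1.09±0.175 CPM in vehicle and 0.514±0.458 CPM in indole mice, the log2 fold change was −1.10 (SE 0.479), and 5 indole mice lay below every vehicle mouse.

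The 2 transcription factors were read at few counts. *Wt1* (ENSMUSG00000016458, chr2:105126529-105173616, plus strand) had 0 to 15 reads in vehicle mice (median 2) and 0 to 6 in indole mice (median 3), and 15 of its 27 vehicle reads came from G11. Its means, 0.205±0.30 and 0.166±0.104 CPM, did not differ beyond their spread. *Bnc1* (ENSMUSG00000025105, chr7:81966653-81992307, minus strand), basonuclin, had 2 to 15 reads in vehicle mice (median 7) and 0 to 6 in indole mice (median 4). It was at 0 in G2, G12 and G14 alone among the 14 mice, and the means were 0.450±0.270 and 0.167±0.168 CPM. *Rspo1* (ENSMUSG00000028871, chr4:124986430-125009099, plus strand), the secreted R-spondin 1, had 1 to 22 reads in vehicle mice (median 10) and 0 to 21 in indole mice (median 6). Its groups overlapped widely, with means of 0.730±0.413 and 0.350±0.399 CPM, 1 read in vehicle mouse G1 and 21 in indole mouse G3.

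**Figure D3:**
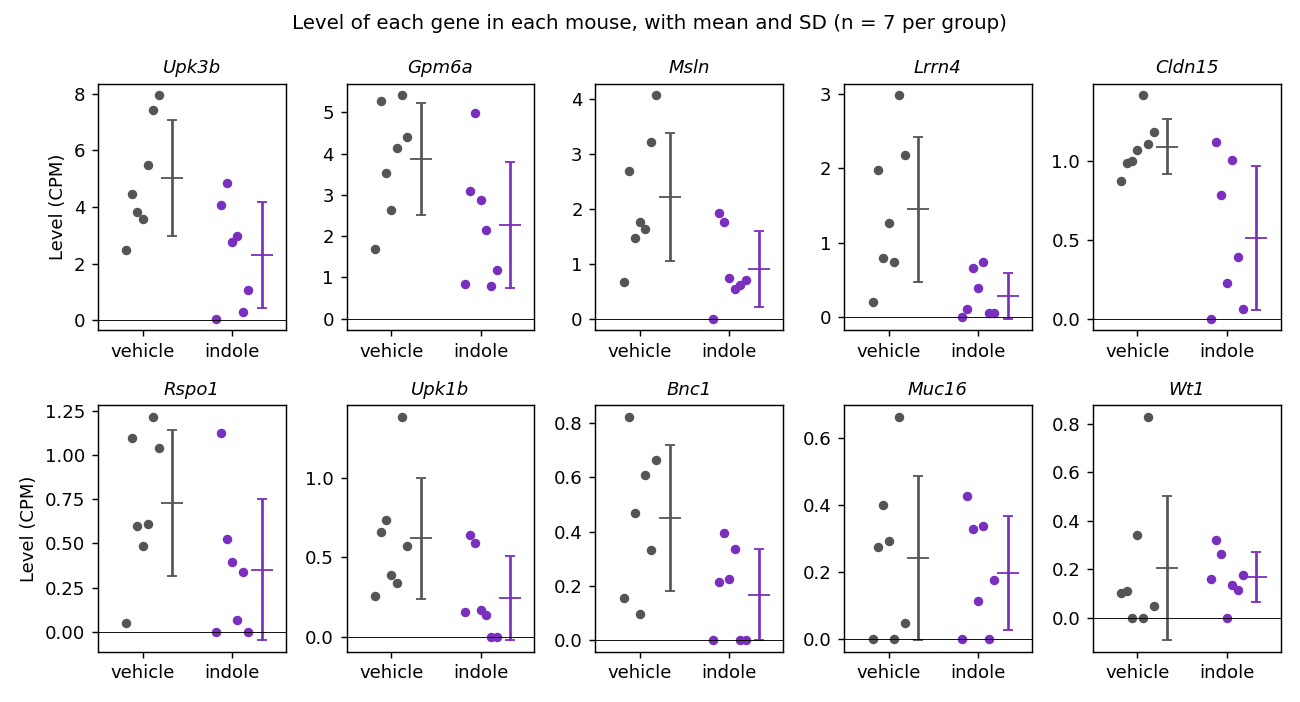
CPM of each of the 10 genes in every mouse, 1 panel per gene, with points for mice and bars for the group mean and SD (*n*=7 per group). The groups overlap in every panel, least in *Lrrn4*, where 6 vehicle mice lie above all indole mice. Of those 6, G10 (0.746 CPM) is nearly tied with indole mouse G8 (0.740 CPM).

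Across the 10 genes, 5 passed the filter on low counts (*Lrrn4*, *Msln*, *Upk3b*, *Cldn15* and *Gpm6a*), and a gene that passes through its vehicle reads alone has to be lower in indole mice. All 5 were lower in indole mice, where 48.7% of the 12653 genes tested were, and 3 had an unadjusted p under 0.05 in edgeR, where 3.81% of genes did (2.28% lower and 1.53% higher). Without the filter all 10 were lower, with a median log2 fold change of −1.12, where 48.2% of 22535 genes were lower. The fits of the 5 sparsely read genes gave −1.42 (SE 0.650) for *Bnc1*, −1.33 (SE 0.571) for *Upk1b*, −1.04 (SE 0.688) for *Rspo1*, −0.31 (SE 0.767) for *Wt1* and −0.29 (SE 0.768) for *Muc16*. Then 5 genes had an unadjusted p under 0.05 in edgeR, where 2.97% of genes did so with a lower level, and 6 did in DESeq2, where 1.79% did. No gene in the table passed an adjusted p of 0.05 in edgeR (0.0%, 482 genes at an unadjusted p under 0.05), and none did in DESeq2 on all genes with a read, while 1 did in DESeq2 on the filtered genes. Nothing is read from these counts for the 10 genes, since they were chosen on the same comparison. Without G2, G12 and G14 7 of the genes passed the filter and 1 was called. Their median log2 fold change was −0.47 (−1.15 over the 5 genes with all mice). Without G11 and G13 the median was −0.87 and 1 of 5 was called. Without G13 alone 1 of 5 was called, and without G5 alone 5 of 6 were. The share of all genes called in these fits is not given, so nothing is read from these counts either.

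The 10 genes varied together from mouse to mouse within the groups. After each group mean was taken off the log2 CPM, the median Pearson correlation over the 45 pairs of genes was 0.593 across 14 mice, and 31 pairs were above 0.5. Over all 80042878 pairs of genes tested the median was −0.0013, and 4.08% of pairs reached 0.593 or more. Those pairs hold only genes that passed the filter on low counts, while the 45 pairs also hold genes that did not. Over the 10 pairs among the 5 genes that passed it, the median was 0.722. The closest pair was *Upk3b* and *Gpm6a* (r=0.880), both well read, and the only pair below 0 was *Wt1* and *Bnc1* (r=−0.243), with 47 and 75 reads in all. *Gpm6a* had the highest median correlation with the other 9 genes (0.757), *Lrrn4* had 0.615 and *Wt1* had the lowest (0.168). The median over the 45 pairs was 0.550 within the 7 vehicle mice and 0.643 within the 7 indole mice. Without G2, G12 and G14 it was 0.406. The points share their libraries and scaling, and at these read numbers a correlation is a description only.

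**Figure D4:**
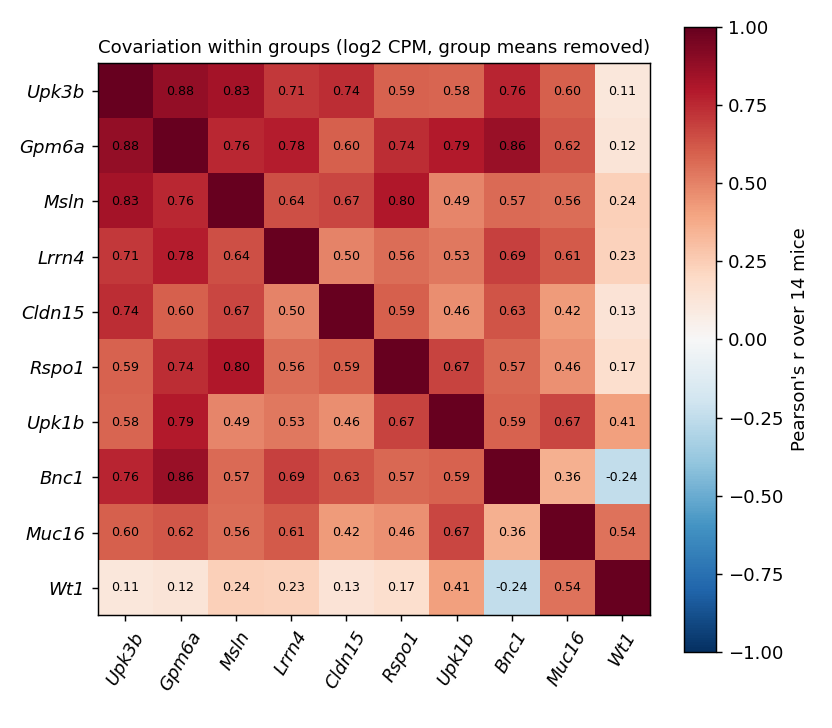
Pearson correlation between each pair of the 10 genes over 14 mice, from log2 CPM with the group mean taken off. Pairs among *Upk3b*, *Gpm6a* and *Msln* reach 0.757 to 0.880, and *Wt1* has the palest row, with a median of 0.168.

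Among the genes tested, *Spock2*, which encodes an extracellular matrix proteoglycan, was most like the mean of the 8 better-read mesothelial genes across the 14 mice (r=0.916, rho=0.930). It had 12 to 52 reads in vehicle mice and 0 to 19 in indole mice. *Sulf1*, a heparan sulphate endosulphatase (r=0.871), *Gpc3*, a glypican (r=0.827), *Bmper*, a regulator of bone morphogenetic protein signalling (r=0.821), *Nbl1*, an antagonist of the same pathway (r=0.815), *Bst1* (r=0.813) and *Igfbp6*, an insulin-like growth factor binding protein (r=0.801), followed, together with *Grb2* (0.821), *Prelid2* (0.817) and *Uchl3* (0.802). *Grb2* is an adaptor protein read at 718 to 1053 reads in vehicle mice, so the likeness is of the pattern over mice and not of the level. Without G2 and G1, the mice farthest from the median, the correlation was 0.863 for *Spock2* and 0.693 for *Grb2*. For *Lrrn4* alone the genes most like it over the 14 mice were *Hnrnpc* (r=0.887), *Steap4* (0.852), *Bmper* (0.846), *Tex261* (0.840) and *Calm3* (0.830). *Bmper*, which both lists hold, had a mean of 0.644±0.287 CPM in vehicle and 0.705±0.552 CPM in indole mice.

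A further list of 22 genes known from mesothelial cells was read in the same fit, and 13 of them passed the filter. Of these, 10 were lower and 3 higher in indole mice (median log2 fold change −0.46), and 6 of the 13 had an unadjusted p under 0.05 in edgeR with a lower level (2.28% of all genes), against 0 with a higher level (1.53%). The 6 were *Sulf1* (−1.31, SE 0.438), *Igfbp6* (−1.10, SE 0.459), the keratin *Krt19* (−0.94, SE 0.291), the protease inhibitor *Slpi* (−0.79, SE 0.357), the surface protein *Cd200* (−0.72, SE 0.277) and the adhesion protein *Bcam* (−0.46, SE 0.194), and each had an adjusted p of 0.998 in edgeR. The same genes varied with the 10 genes from mouse to mouse: the median correlation of the 13 with their mean was 0.599 over 14 mice, and 8 of the 13 were above 0.5, where 5.32% of all genes tested were. *Alcam*, the list's most abundant gene per length, had a log2 fold change of −0.13 (SE 0.0957) and a correlation of −0.262. Without G2, G12 and G14 none of the 13 had an unadjusted p under 0.05, without G11 and G13 only 1 did, and leaving out G11 or G12 alone left 3. The share of all genes called in the fits with mice left out is not given. This list was chosen with earlier results of these data known. A gene that passes the filter through its vehicle reads alone also has to be lower in indole mice. The counts of the list are therefore a description.

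Some mesothelial markers had no reads in the table. *Pdpn*, which encodes podoplanin, and *Calb2*, which encodes calretinin, were listed at 0 in all 14 mice. If these rows hold counted reads, which was not tested, 0 allows up to 0.142 to 0.203 CPM per library (3 reads). Another 7 genes of the list had 21 to 100 reads in all and were not tested. The mesothelial label of the 10 genes thus rests on genes read from 47 reads (*Wt1*) to 909 reads (*Upk3b*) in the whole series.

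Markers of other cells of the capsule and portal tract were read beside them. Over all genes tested, 2.28% had an unadjusted p under 0.05 in edgeR with a lower level and 1.53% with a higher level. In lists of 6 to 10 tested genes, few or none called is near that share. Of 13 fibroblast genes 10 were tested, with a median log2 fold change of −0.11 and 1 called lower (*Eln*, elastin, −0.55, SE 0.244), and their summed level was 22.9 to 37.8 CPM in vehicle and 26.1 to 37.9 CPM in indole mice. The 9 stellate cell genes had a median of 0.03 with none called, and summed to 352 to 412 CPM in vehicle and 255 to 503 CPM in indole mice. The sum was lowest in G12 and second lowest in G14 (306 CPM), while G2 had 437 CPM. Among vehicle mice it was lowest in G13 (352 CPM) and G11 (354 CPM), which had the most mesothelial reads. Of 9 bile duct genes 6 were tested, all of them lower in indole mice (48.7% of all genes tested were), with a median of −0.14 and none called. Their summed levels were 44.4 to 63.1 CPM and 43.9 to 60.5 CPM. The keratins *Krt19* (−0.94, SE 0.291) and *Krt7* (−0.48, SE 0.326) were counted in the mesothelial list and not among these bile duct genes. *Krt19* was called lower, so the number called in each list depends on where it is placed. The most abundant gene per length of each list had a log2 fold change of 0.09 (SE 0.153) for *Col15a1*, a collagen, among the fibroblast genes, 0.07 (SE 0.119) for *Ecm1* among the stellate cell genes and −0.15 (SE 0.112) for *Spp1*, osteopontin, among the bile duct genes. The median correlation of their genes with the mesothelial mean was 0.0128 for fibroblasts, 0.278 for stellate cells and −0.0848 for bile duct.

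**Figure D5:**
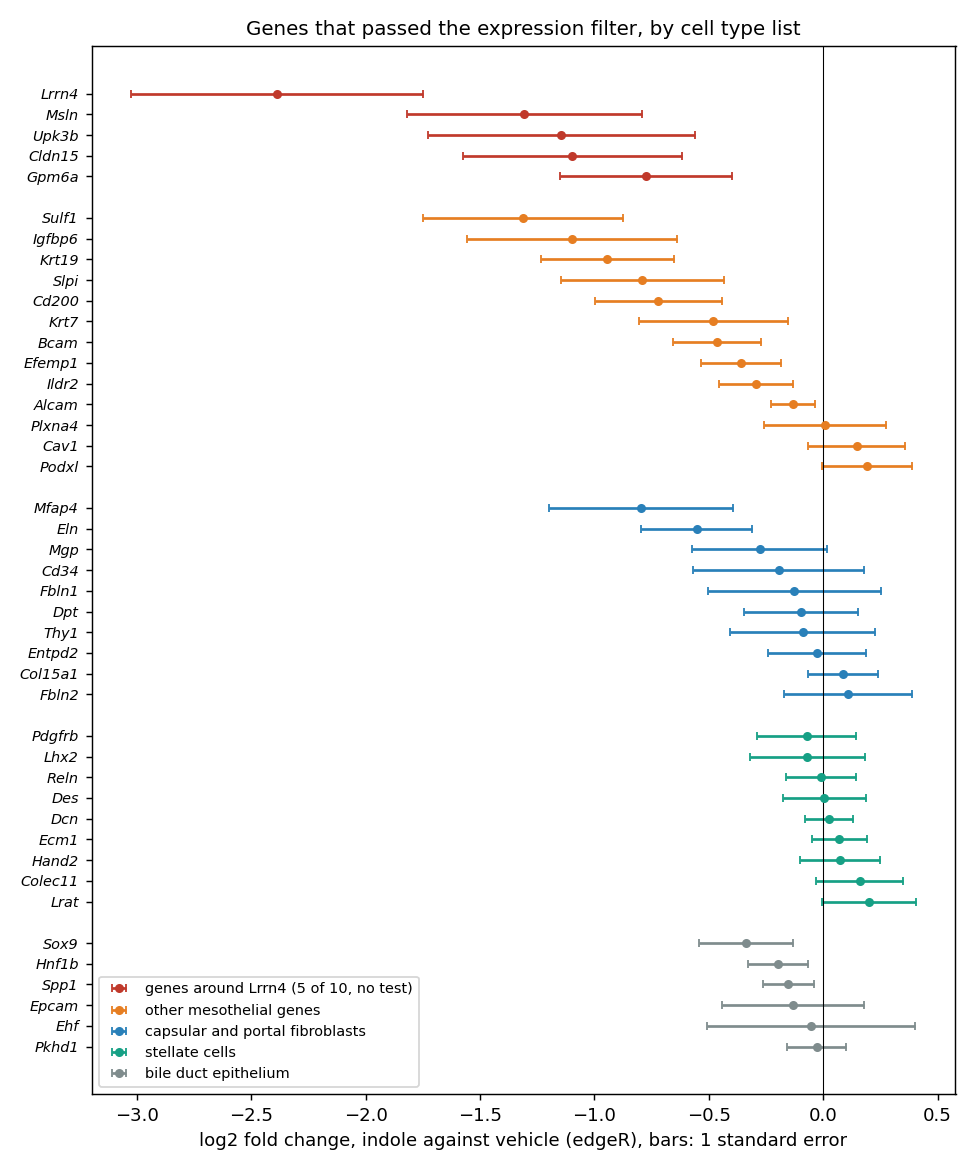
Log2 fold change (indole over vehicle) from edgeR on all 14 mice, with bars of 1 standard error, for the genes that passed the filter in 5 lists, 1 colour per list. *Lrrn4* lies farthest from 0, at −2.39, the other mesothelial genes spread from −1.31 to 0.19, and the stellate cell genes lie between −0.07 and 0.20.

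Genes of most neighbouring organs were read at low levels, on a scale where the 10 mesothelial genes together had 1.21 CPM in G2. Adipocyte genes summed to at most 1.54 CPM in any mouse, skeletal muscle genes to at most 1.02 CPM, kidney genes to at most 0.176 CPM (3 reads), adrenal genes to at most 1.73 CPM and urothelial genes to at most 0.384 CPM. The most abundant of each list per length had few reads over all mice, 96 for *Adrb3* (adipocyte), 66 for *Mylpf* (muscle), 4 for *Slc34a1* (kidney), 173 for *Star* (adrenal, log2 fold change 0.17, SE 0.319) and 9 for *Upk1a* (urothelium). The pancreatic and gut lists summed to 9.94 to 19.8 CPM and 42.4 to 73.5 CPM over all mice. The other pancreatic genes had 0 to 2 reads each over all mice. Of the other gut genes, *Cdx1* and *Cdx2* were listed at 0, *Krt20* had 4 reads and *Vil1* had 35. Each list thus rested on 1 gene that the filter kept, *Cela1* (0.30 higher on the log2 scale) and *Fabp2* (0.22 higher). Both, and *Ttr* of the 4 hepatocyte genes (0.24 higher, where *Alb*, the most abundant, had 0.01 with SE 0.0996), had an unadjusted p under 0.05 with an adjusted p of 0.998 in edgeR. The defining urothelial gene *Upk3a* was listed at 0 in every mouse and *Upk2* had 2 reads in all, against 909 for *Upk3b* and 107 for *Upk1b*.

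Relatives of the 10 genes in the same families were read as well. Of 20 paralogues, 7 were listed at 0 in every mouse (*Lrrn2*, *Mslnl*, *Upk3a*, *Upk3bl*, *Rspo2*, *Rspo4* and *Muc4*). Another 7 were tested and none was called, where 3.81% of all genes tested were. *Lrrn3* had a log2 fold change of 0.24 (SE 0.312), *Gpm6b* 0.57 (SE 0.293) and *Rspo3*, an R-spondin of liver endothelial cells, 0.20 (SE 0.168). The claudins *Cldn1* (−0.20, SE 0.1001), *Cldn2* (0.03, SE 0.0950) and *Cldn3* (−0.07, SE 0.0726), which hepatocytes and bile ducts make, had far higher levels, and the median correlation of the tested paralogues with the mesothelial mean was 0.0487. Of the receptors and ligases through which R-spondins act, *Lgr4* (−0.06, SE 0.0991), *Lgr5* (−0.07, SE 0.236) and *Rnf43* (−0.21, SE 0.148) were not called, and *Znrf3*, a ligase that removes Wnt receptors, was lower (−0.30, SE 0.138, unadjusted p=0.0391 in edgeR, adjusted p=0.998).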

How the data were processed

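Strand-specific polyA libraries were made from liver RNA of 14 mice. Per the labels and the study's methods, the authors aligned reads with HISAT2 to GRCm38 (Ensembl 102) and deposited raw counts of uniquely mapped reads per gene, with gene lengths. The counting tool and its strand setting were not given in the sources used here. Of 8 genes that overlap 4 of the 10 genes described, none had a read.

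Groups were taken from the treatment labels. Nothing in the labels pairs mice, and mouse numbers serve as names. No libraries of a group agreed within sampling noise (lowest chi-square per degree of freedom 14.9). Counts were analysed in R 4.3.3 with edgeR 4.0.16 (TMM scaling, filterByExpr with a minimum count of 10 and total of 15, robust quasi-likelihood test, treatment as the only term, Benjamini-Hochberg adjustment over all genes tested). DESeq2 1.42.0, which the authors used, served as an alternative. CPM were computed on TMM-scaled libraries and RPKM from the deposited lengths. Depth was 15197498 to 21060376 reads, and the limit given for 0 reads is 3 reads. Intervals and limits cover counting error only. Correlations used log2 CPM with a prior count of 2, and the mesothelial mean used the 8 genes with at least 5 reads per mouse on average. The test was run on simulated data before use.

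The 10 genes and the lists were chosen with earlier results of these data known. Named were all 10 genes, genes of each list with an unadjusted p under 0.05 or the highest level per length, and the 10 (for *Lrrn4*, 5) genes of highest correlation. Paralogues, receptors and markers named beyond this rule were chosen after their values were seen. Alternatives were RLE scaling, no filter, DESeq2 with and without the filter, each mouse left out, other correlation settings and, chosen after seeing the data, leaving out G2, G12 and G14 or G11 and G13, and libraries G1 to G4 as a covariate. Promoter sequences are those of RefSeq (GRCm38.p6).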

Additional observations from a re-analysis of the deposited data

Results flagged for a closer look

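In vehicle mouse G11, *Upk1b* stood apart from the other 6 vehicle mice: 25 reads, against 5 to 12 in the others, and a gap of 0.578 of the group's whole CPM range to the next mouse, above Dixon's 95% critical value for 7 samples. *Wt1* did so in the same mouse, with 15 reads against 0 to 7 and a gap of 0.589. Of 24 such comparisons these 2 passed, and chance alone flags about 1 in 20 groups. The highest *Saa1* level of all mice was also in G11 (2050 CPM), and its part in these values was not tested.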

How the results depend on the processing

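No paired analysis was possible because the mouse numbers are not shared between the groups. Among the 10 genes, 3 of 5 tested had an unadjusted p under 0.05 in edgeR, where 3.81% of all genes tested did (2.28% with a lower level). This was 5 of 10 without a filter on low counts, where 2.97% of all genes were called with a lower level. It was 6 of 10 in DESeq2 with default settings, where 1.79% were. It was 1 of 7 without G2, G12 and G14 and 1 of 5 without G11 and G13. Leaving out each mouse in turn gave 1 of 5 (without G13) to 5 of 6 (without G5). Of the 13 other mesothelial genes that passed the filter, 6 were called, all with a lower level (2.28% of all genes tested). The number called was 0 without G2, G12 and G14, 1 without G11 and G13, and 3 to 7 with each mouse left out. The share of all genes called in the fits with mice left out is not given. Nothing is read from these counts, since the genes of both lists were chosen with results of these data known. No gene passed adjustment in edgeR, and 1 did in DESeq2 on the filtered genes. Fewer mice were fitted where mice were left out, and more genes where the filter was dropped; other causes were not tested. No direction reversed. With each mouse left out, 5 or 6 of the 10 genes passed the filter, so medians and counts do not always cover the same genes. Their median log2 fold change was −1.44 to −0.89, the summed CPM ratio (indole over vehicle) 0.384 to 0.530, the median pair correlation 0.539 to 0.625 and the *Lrrn4* share difference −5.92 to −4.35 percentage points. With libraries G1 to G4 as a covariate, 3 of 5 tested among the 10 genes and 5 of the 13 others were called. The share of all genes called in that fit is not given, so nothing is read from these 2 counts.

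Of the 10 genes, those other than *Upk3b* and *Gpm6a* had at most 86 reads in a mouse, so counting error is wide for single mice. With all 14 mice, 5 of the 10 genes had too few reads for the filter, and of these *Rspo1* and *Upk1b* passed it in some fits with mice left out. The amount of capsule in each piece was not measured apart from these genes.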
